A study of Mus musculus with 16 samples.

Results

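Somatostatin (*Sst*) interneuron nuclei were taken from single-nucleus RNA-seq of 16 mouse hippocampi as barcodes that held *Sst* beside a GABA-synthesis gene. A nucleus had to have 1000 to 7000 detected genes, at most 5% mitochondrial UMIs, at least 2 UMIs of *Gad1* and *Gad2* together and at least 2 UMIs of *Sst*. It could hold no UMI of *Slc17a7*, *Mog*, *Pdgfra* or *Csf1r*, which mark excitatory neurons, oligodendrocytes, their precursors and microglia. The rule left 1395 *Sst* nuclei of 155084 barcodes, out of 129802 nuclei within the limits on genes and mitochondrial UMIs and 7695 GABAergic nuclei, which met every part of the rule but the cut on *Sst*. No barcode of an *Sst* nucleus occurred in more than 1 library (0 shared).

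Each library came from 1 male mouse. The 8 wild-type (WT) animals were C57BL/6 mice aged 2 months and 23 days, and the 8 *Ifnar1*-/- animals, which lack a subunit of the type I interferon receptor in all cells, were aged 3 months and 3 days, so genotype, age and cohort cannot be told apart. Within each genotype, 4 mice received vehicle and 4 received DMXAA, a small-molecule agonist of mouse STING, by repeated intraperitoneal injection, and tissue was taken a day after the last dose. The study asked whether chronic type I interferon signaling changes neuronal transcription. Control mice of both genotypes had the same injections of vehicle.

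Somatostatin interneurons are GABAergic cells that arise in the medial ganglionic eminence under the transcription factors *Lhx6*, *Sox6* and *Satb1*. In the hippocampus many of them lie in stratum oriens or the dentate hilus and contact the distal dendrites of principal cells, and some are long-range projecting cells that make nitric oxide and neuropeptide Y. The peptide is cut from a precursor, stored in dense-core vesicles with chromogranins and secretogranins, and released to act on inhibitory Gi-coupled receptors. Transcription of *Sst* is a classical target of cAMP signaling through the CREB factor, which binds an 8-base palindrome in its promoter.

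*Sst* (ENSMUSG00000004366) lies on chromosome 16, 23889573 to 23890958, minus strand, in mm10 (GENCODE M21). The RefSeq promoter windows (GRCm38.p6, 250 bases before to 50 after the start) of *Sst*, *Chgb* and *Scg2* are shown because all 3 genes belong to the peptide pathway, were lower in *Ifnar1*-/- *Sst* nuclei and hold this palindrome, a choice made after their values were seen. That the 3 share it follows from the choice, and the level of *Sst*, a gene the rule used, is a description. Capitals mark TGACGTCA, which reads the same on both strands. The windows are chr16:23890795-23891094 (minus strand), chr2:132781392-132781691 (plus strand) and chr1:79439977-79440276 (minus strand).
Sst promoter: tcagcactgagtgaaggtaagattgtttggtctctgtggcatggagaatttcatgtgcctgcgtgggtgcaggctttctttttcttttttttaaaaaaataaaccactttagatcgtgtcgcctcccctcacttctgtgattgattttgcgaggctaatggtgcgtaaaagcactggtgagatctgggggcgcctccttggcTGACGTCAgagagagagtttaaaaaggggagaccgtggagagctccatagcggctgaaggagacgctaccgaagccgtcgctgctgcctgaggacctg
Chgb promoter: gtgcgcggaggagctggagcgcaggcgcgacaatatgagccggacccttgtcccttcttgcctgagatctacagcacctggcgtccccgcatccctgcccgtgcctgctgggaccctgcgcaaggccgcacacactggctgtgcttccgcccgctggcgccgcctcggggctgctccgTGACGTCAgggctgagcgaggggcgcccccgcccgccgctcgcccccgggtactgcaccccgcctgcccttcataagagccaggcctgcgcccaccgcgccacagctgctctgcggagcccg
Scg2 promoter: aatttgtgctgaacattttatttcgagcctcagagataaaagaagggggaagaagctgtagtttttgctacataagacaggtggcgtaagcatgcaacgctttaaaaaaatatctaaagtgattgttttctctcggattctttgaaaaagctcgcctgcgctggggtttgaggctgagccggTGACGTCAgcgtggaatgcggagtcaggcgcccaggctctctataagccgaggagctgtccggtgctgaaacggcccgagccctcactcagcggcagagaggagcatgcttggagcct
The palindrome ended 40 bases before the start of *Sst*, 64 before *Chgb* and 60 before *Scg2*. It also occurred in the window of *Pcsk1*, a peptide-processing protease, and not in those of *Npy* or *Cort*. The palindrome was found in 588 of 32851 promoter windows (1.79%), in 333 of 10262 windows of genes tested in *Sst* nuclei (3.24%) and in 5 of 34 windows of the neuropeptide list (14.7%). A match is a description of the letters only, and no binding was measured.

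The number of *Sst* nuclei was 103, 86, 120 and 144 in WT vehicle replicates 1 to 4, and 105, 103, 57 and 142 in WT DMXAA. It was 61, 50, 68 and 50 in *Ifnar1*-/- vehicle, and 55, 76, 107 and 68 in *Ifnar1*-/- DMXAA libraries. Summed over these nuclei, libraries held 766471 to 1796258 UMIs. The median *Sst* nucleus held 8929 to 11506 UMIs in WT and 12395 to 19567 UMIs in *Ifnar1*-/- libraries, so depth per nucleus did not overlap between genotypes. WT DMXAA replicate 3 stood apart from the other WT libraries: in *Sst* nuclei, *Malat1*, a nuclear noncoding RNA, was 65915, 64085, 23646 and 56420 CPM in WT DMXAA replicates 1 to 4, 49367 to 63349 CPM in WT vehicle and 11502 to 31618 CPM in *Ifnar1*-/- libraries. Counts of called genes in *Sst* nuclei for the comparisons that use it, and the comparisons of share and *Sst* level, are therefore given with and without it. List counts and the tests between populations are given with it.

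The cut on *Sst* was passed by a continuous range of nuclei. Of the 7695 GABAergic nuclei, 5825 held no *Sst* UMI, 475 held 1 and stayed just outside, 277 held 2 and 211 held 3 just inside, and 753 held 5 or more. In excitatory nuclei, defined by 5 or more UMIs of *Slc17a7* and none of *Gad1* or *Gad2*, 0.533% to 7.89% per library held at least 1 *Sst* UMI and at most 0.544% held 2. The share with at least 1 UMI was 3.43% to 7.89% in WT vehicle and 3.02%, 3.70%, 0.533% and 4.25% in WT DMXAA replicates 1 to 4. It was 1.87% to 2.73% in *Ifnar1*-/- vehicle and 1.70% to 2.46% in *Ifnar1*-/- DMXAA libraries. The median excitatory nucleus held 14280.5 to 22376 UMIs in WT and 20419.5 to 30069 UMIs in *Ifnar1*-/- libraries. The source of these *Sst* UMIs, free RNA among others, was not tested.

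Several markers that the rule did not use went with the label, and others did not set these nuclei apart or were lower in them. *Lhx6* was detected in 47.7% of *Sst* nuclei, 29.1% to 67.2% per library, and *Sox6* in 78.1%. *Grin3a*, an NMDA receptor subunit, was detected in 87.7%, *Reln* in 75.6%, *Elfn1*, a postsynaptic organizer of facilitating inputs, in 66.4%, and *Crhbp* in 40.6%. Over 2762 nuclei with 2 or more UMIs of *Adarb2* and none of *Lhx6* or *Sst*, which stand for interneurons of the caudal ganglionic eminence, *Crhbp* was detected in 1.16% and *Sox6* in 8.87%. *Grin3a* was detected in 43.8% of these *Adarb2* nuclei, *Reln* in 45.0% and *Elfn1* in 22.5%. In nuclei with 2 or more UMIs of *Lhx6* and no *Sst*, *Sox6* was detected in 73.7%. *Trps1* and *Erbb4*, of the identity genes listed below, were lower in *Sst* nuclei than in both populations in all 16 libraries. Their median was 76.3 and 2793 CPM in *Sst* nuclei, 592 and 13149 CPM in those *Lhx6* nuclei, and 187 and 6773 CPM in *Adarb2* nuclei. With every nucleus thinned to 2000 UMIs, *Sox6* was detected in 54.8% of *Sst* and 4.17% of *Adarb2* nuclei, *Crhbp* in 12.3% and 0.290%, and *Lhx6* in 11.3% of *Sst* nuclei. *Vip*, which marks another interneuron class, was detected in 0.789% of *Sst* nuclei and *Pvalb* in 5.16%. Of the *Sst* nuclei, 93 (6.67%) were called as doublets by comparison with simulated doublets and were kept.

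A share of *Sst* nuclei also held *Adarb2* at 2 or more UMIs. It was 0.971% to 5.56% in WT vehicle, 0%, 2.91%, 21.1% and 2.11% in WT DMXAA replicates 1 to 4, 4.41% to 20% in *Ifnar1*-/- vehicle and 6.54% to 10.3% in *Ifnar1*-/- DMXAA libraries. WT DMXAA replicate 3 again lay outside its group. The fits were also run without these nuclei, where 144 results for single genes kept their call or lack of one and 5 lost a call.

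*Sst* nuclei were set beside 552 GABAergic nuclei of the same libraries with 2 or more UMIs of *Lhx6* and no *Sst*, of which a library held 21 to 53. These ratios are described without a test, since the rule chose both populations. *Synpr*, a synaptic vesicle protein, was 915 to 1750 CPM in *Sst* nuclei and 15.9 to 243 CPM in *Lhx6* nuclei without *Sst*, with a median log2 ratio of 3.51 over the 16 libraries and a lowest ratio of 2.50. *Grin3a* was 551 to 970 CPM against 23.8 to 233 CPM (median log2 ratio 2.28). In *Adarb2* nuclei *Synpr* was 591 to 1173 CPM, a range that overlapped with that of *Sst* nuclei (median log2 ratio 0.61). *Grin3a* was 116 to 210 CPM there (2.3).

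The other genes of this kind included *Trhde*, which degrades the peptide TRH (median log2 ratio 2.98), *Trpc6*, a cation channel (2.56), *Serpine2*, a protease inhibitor (3.1), and *Frmd4b* (2.01). Of these, *Serpine2* was not higher in *Sst* than in *Adarb2* nuclei, with a median log2 ratio of -0.67, whereas *Trpc6* was higher in *Sst* nuclei of every library there too, at 2.12 or more. On the other side, *Cacna2d1*, a calcium channel subunit and the receptor of gabapentin, was 14.5 to 81.5 CPM in *Sst* nuclei and 250 to 1139 CPM in *Lhx6* nuclei without *Sst* (-4.48). *Syt2*, the fast calcium sensor of basket cell terminals, was at most 15.5 CPM in *Sst* nuclei and 45.3 to 155 CPM in the other *Lhx6* nuclei (-3.85). Across 10186 genes, 399 were higher and 379 lower in *Sst* than in the other *Lhx6* nuclei in all 16 libraries.

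**Figure D1:**
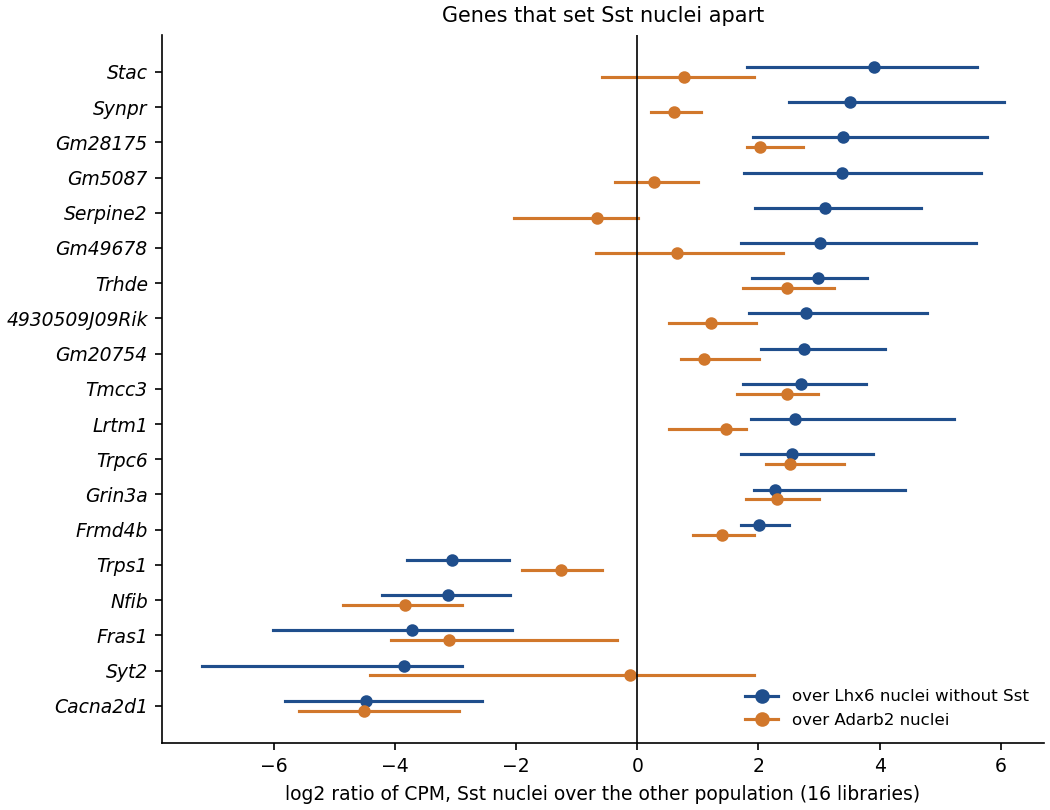
Log2 ratio of CPM in Sst nuclei over Lhx6 nuclei without Sst (blue) and over Adarb2 nuclei (orange) for 14 of the 15 genes with the highest and the 5 with the lowest ratios against the Lhx6 nuclei. Points are medians and lines the range over 16 libraries, and no blue line crosses 0.

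*Sst* nuclei fell into 14 groups when they were clustered among themselves, which describes their variety without a test. Most groups drew on all libraries. The first group, of 303 nuclei (21.7%), was led by *Cdh7* (547 against 63.2 CPM in the rest) and *Unc13c* and had *Reln* at 1150 CPM and *Calb1* at 99.3 CPM. Group 3, of 182 nuclei, was led by *Layn* and *Eya1* (399 against 53.2 CPM) with *Chrna7*, the alpha-7 nicotinic receptor, at 370 against 85.4 CPM, and had *Reln* at 1903 CPM. Group 6, of 176 nuclei, was led by *9530026P05Rik* and *Pld5* (708 against 91.3 CPM). Group 10, of 122 nuclei, had *Spon1*, an extracellular matrix gene, at 479 against 66.1 CPM.

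Some groups carried high *Erbb4*, the neuregulin receptor. Group 4, of 113 nuclei, with *Corin* (217 against 6.91 CPM), held 11027 CPM of *Erbb4*. Group 7, of 90 nuclei, with *Tac1*, the substance P precursor (136 against 5.33 CPM), and *Creb5* (190 against 10.5 CPM), held 12219 CPM. In both, *Elfn1* was low, at 28.0 and 29.2 CPM, against 250 CPM in the first group, and *Grin3a* was 773 and 169 CPM. Group 12, of 34 nuclei, led by *Mybpc1* and *Ptprk* (1477 against 80.4 CPM), had *Erbb4* at 5421 CPM and *Crhbp* at 2.60 CPM.

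Another small group was marked by *Nos1*. Group 11 held 20 nuclei (1.43%) from 11 libraries, 9 of them called as doublets. It had *Nos1*, neuronal nitric oxide synthase, at 1863 against 13.5 CPM, *Tacr1*, the substance P receptor, at 731 against 4.72 CPM, *Chodl* at 102 against 0.111 CPM and *Npy* at 1136 CPM. It lacked *Reln* and *Calb1*, both at 0 CPM. These genes are those known for the *Nos1* and *Chodl* long-range *Sst* cells. *Chrna2*, a nicotinic receptor known from cells of stratum oriens, was at most 2.60 CPM in any group.

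The leading genes of 3 groups went against the label. Group 13 (19 nuclei, all 19 called as doublets) was led by genes of astrocytes such as *Gli3* and *Fgfr3*, with *Slc1a2* at 2256 CPM. Group 5 (25 nuclei, 16 called as doublets) held *Adarb2* at 599 CPM and *Prox1* at 52.8 CPM. Group 14 (13 nuclei, 7 of them from WT DMXAA replicate 1) held *Meis2* at 1578 CPM and no *Lhx6*. The fits were also run without these 3 groups, where 143 results for single genes kept their call or lack of one and 3 lost a call. Group 8, of 116 nuclei (8.32%) from all 16 libraries and led by *Adamts19* and *Stk32b*, was not among the 3. It had *Sox6* at 12.8 and *Satb1* at 49.6 CPM, against 876 and 457 CPM in the first group, with *Lhx6* at 58.7 CPM.

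**Figure D2:**
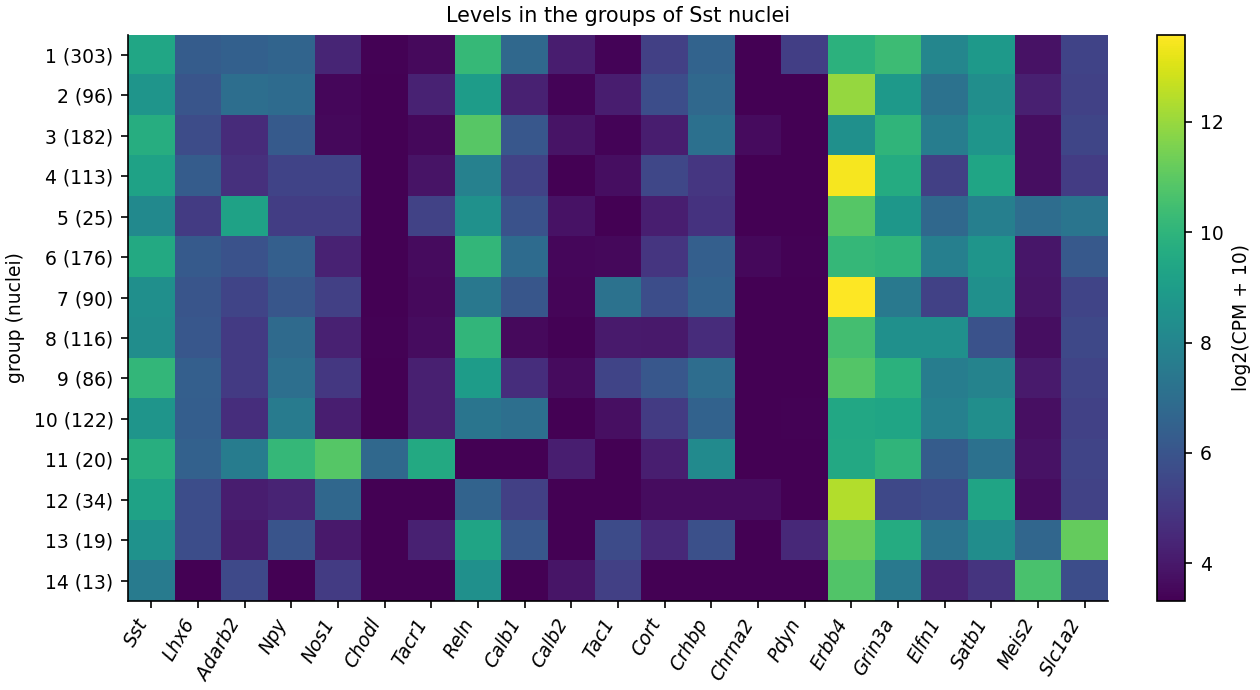
Levels of 21 marker genes, as log2(CPM + 10), in the 14 groups of Sst nuclei, with the number of nuclei in each group in brackets. Group 11 stands out for Nos1, Chodl, Tacr1 and Npy, group 13 for Slc1a2 and group 14 for Meis2.

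The share of *Sst* nuclei among GABAergic nuclei was compared to ask whether DMXAA or genotype changed the yield of these cells. It was lower in *Ifnar1*-/- than in WT libraries, and DMXAA did not shift it beyond the spread between libraries. The share was 19.9%, 23.2%, 24.5% and 24.7% in WT vehicle replicates 1 to 4, and 18.3%, 22.1%, 11.1% and 27.5% in WT DMXAA libraries. It was 13%, 14.7%, 15.1% and 10.1% in *Ifnar1*-/- vehicle, and 13.4%, 17.3%, 17.5% and 15.1% in *Ifnar1*-/- DMXAA libraries. WT DMXAA replicate 3 fell among the *Ifnar1*-/- libraries, with a 95% exact binomial (Clopper-Pearson) interval of 8.51% to 14.1% that covers counting error only.

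Among WT libraries the mean was 19.7% ± 6.88 with DMXAA and 23.1% ± 2.20 with vehicle (SD, n = 4 each), a difference of -3.33 points (two-sided exact permutation p = 0.486, adjusted p = 0.486 over 4 comparisons). Without WT DMXAA replicate 3 it was -0.447 points (exact permutation adjusted p = 0.971). Among *Ifnar1*-/- libraries it was 15.9% ± 1.95 with DMXAA and 13.2% ± 2.27 with vehicle, a difference of 2.64 points (exact permutation p = 0.114, adjusted p = 0.152). Between the vehicle groups the *Ifnar1*-/- share was 9.86 points lower and did not overlap with WT, and the exact permutation p of 0.0286, the smallest that 4 against 4 libraries allow, gave an adjusted p of 0.0572. Over both treatments, 14.5% ± 2.41 in *Ifnar1*-/- and 21.4% ± 5.05 in WT libraries (SD, n = 8 each) differed by -6.88 points (exact permutation p = 0.00528, adjusted p = 0.0211). Without WT DMXAA replicate 3 this difference was -8.35 points (exact permutation adjusted p = 0.00124). That library was the only WT one to overlap with the *Ifnar1*-/- libraries. Leaving it out therefore fixes p at the smallest value the test allows. In all 16 libraries, with all nuclei within the limits as the denominator, the genotype difference missed the threshold (-0.334 points, exact permutation adjusted p = 0.0572). With each nucleus thinned to 2000 UMIs the difference was -4.56 points (exact permutation adjusted p = 0.0130). Thinning left 3 to 30 *Sst* nuclei in WT and 2 to 8 in *Ifnar1*-/- libraries. It was applied to *Gad1*, *Gad2* and *Sst* only, and the other parts of the rule stayed at full depth. A nucleus with less *Sst* RNA falls under the cut, so fewer cells and less *Sst* RNA per cell cannot be told apart.

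*Sst* itself was also measured in nuclei chosen without it, those with *Gad1* or *Gad2* and at least 1 UMI of *Lhx6*. They include nuclei with and without *Sst*, so their level depends on this mix as well as on *Sst* RNA per cell. It therefore cannot separate fewer *Sst* cells from less *Sst* RNA per cell either. In these nuclei the level was 174, 206, 176 and 529 CPM in WT vehicle and 259, 215, 56.2 and 325 CPM in WT DMXAA libraries. It was 69.1, 77.0, 124 and 86.1 CPM in *Ifnar1*-/- vehicle, and 122, 108, 156 and 151 CPM in *Ifnar1*-/- DMXAA libraries. WT vehicle replicate 4 was far above its group, WT DMXAA replicate 3 was the lowest of all libraries, and the other WT libraries lay above all *Ifnar1*-/- ones. WT vehicle replicate 4 also had the highest and WT DMXAA replicate 3 the lowest share of excitatory nuclei with *Sst* (7.89% and 0.533%). The part of such RNA in the *Sst* level was not tested.

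The *Ifnar1*-/- mean was 112 ± 32.6 CPM against 242 ± 139 CPM in WT over both treatments (SD, n = 8 each), a difference of -131 CPM (two-sided exact permutation p = 0.00746, adjusted p = 0.0298 over 4 comparisons). Without WT DMXAA replicate 3, the only WT library not above the *Ifnar1*-/- ones, the adjusted p was 0.00124 (exact permutation). Leaving it out removes all overlap, so this p is the smallest the test allows. With a cut of 2 *Lhx6* UMIs, in all libraries, the adjusted p was 0.0964 (exact permutation). Between vehicle groups the difference was -182 CPM (exact permutation adjusted p = 0.0572). With DMXAA the level differed by -57.4 CPM in WT (exact permutation p = 0.686; -4.95 CPM without WT DMXAA replicate 3) and by 45.3 CPM in *Ifnar1*-/- libraries (exact permutation p = 0.0857, adjusted p = 0.114). The call over both treatments was also lost on leaving out any 1 of WT vehicle replicates 2 and 4, WT DMXAA replicates 1, 2 and 4, or *Ifnar1*-/- vehicle replicates 1, 2 and 4, with adjusted p up to 0.0596 and a difference of -89.9 CPM without WT vehicle replicate 4.

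**Figure D3:**
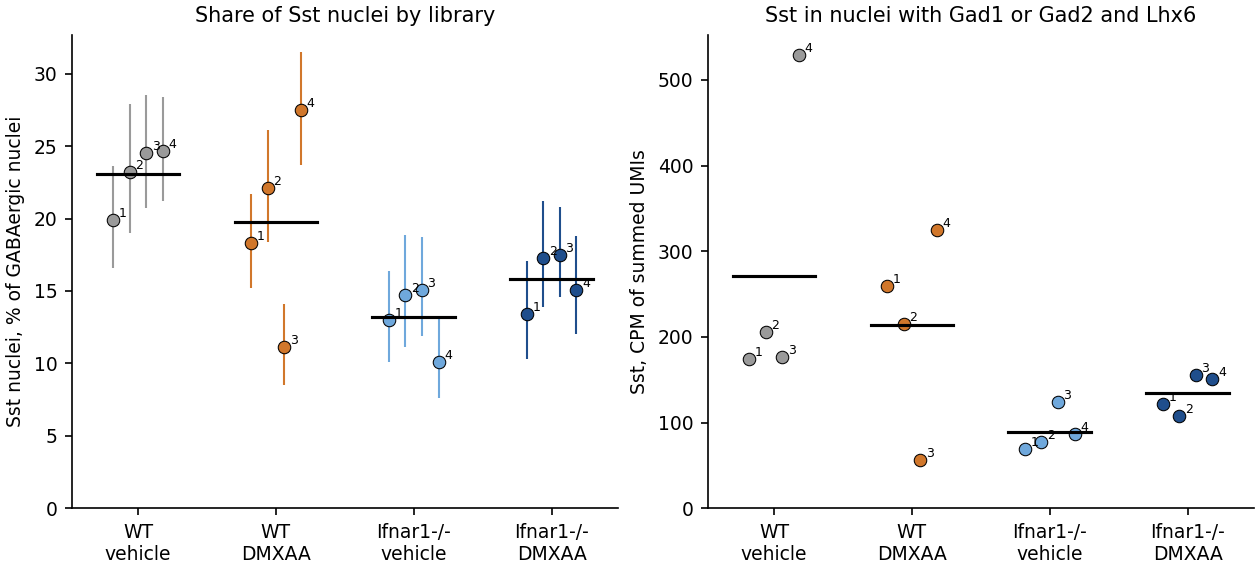
Left, Sst nuclei as a percent of GABAergic nuclei, with 95% exact binomial intervals, and right, Sst in CPM of the summed UMIs of nuclei with Gad1 or Gad2 and Lhx6. Points are libraries, numbered by replicate, and bars are group means. WT DMXAA replicate 3 lies among the Ifnar1-/- libraries in the left panel and below all of them in the right.

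Gene expression in *Sst* nuclei was compared between DMXAA and vehicle to ask whether STING activation reached these neurons. In WT *Sst* nuclei, edgeR called 0 of 10189 genes (0%) at an adjusted p under 0.05, while 362 passed 0.05 before adjustment. The other tools, DESeq2 and limma-trend, also called 0, and 249 and 309 genes passed before adjustment. Leaving out WT DMXAA replicate 3 also gave 0 calls. With no filter on low counts edgeR called 42 genes, 38 higher and 4 lower, of which 33 were also among the genes tested with the filter. Among the 42 were the 5 genes of smallest p on the higher side named next, *Arid5b*, *Man2a1*, *Dlx1as*, *Cntnap5b* and *Dock10*, as well as *Chrna7*, the alpha7 nicotinic receptor (1.03, edgeR adjusted p = 8.61e-07), and *Pde10a*, a cyclic nucleotide phosphodiesterase (0.72, edgeR adjusted p = 0.00247). With the filter, *Chrna7* and *Pde10a* had log2 fold changes of 1.02 and 0.70 and unadjusted edgeR p of 0.0064 and 0.00345. The 42 calls also took in *Gm2516* and *Ttr*, with unadjusted edgeR p of 0.148 and 0.183 under the filter. These calls therefore rest on the choice of filter. The 42 genes also held *Meis2* and *Nos1*, which were among the leading genes of groups 14 and 11. *Gh* and *Prl*, pituitary hormones, were called too, of which *Gh* had 4905 UMIs in WT DMXAA replicate 4 and at most 31 in any other library.

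The genes with the smallest p in WT did not pass with the filter and are given as values. *Arid5b* (chromosome 10, 68092520 to 68278740), a chromatin-associated DNA-binding protein, was 99.6 to 120 CPM in WT vehicle and 140 to 190 CPM in WT DMXAA libraries, without overlap. Its log2 fold change was 0.73 ± 0.15 (SE, n = 4 each), with an unadjusted p of 0.000102 and an adjusted p of 1 by edgeR's quasi-likelihood test, or 0.00318 without the filter. *Cntnap5b*, a neurexin-family adhesion gene, was 71.1, 64.1, 62.5 and 72.5 CPM with vehicle and 119, 89.6, 113 and 96.3 CPM with DMXAA (0.67 ± 0.18). *Man2a1*, a Golgi mannosidase (0.68), *Dlx1as*, the antisense transcript of the interneuron factor *Dlx1* (0.74), and *Dock10* (0.64) were the next on the higher side. Without the filter the edgeR adjusted p of these 4 genes was 0.00953 for *Man2a1* and *Dlx1as*, 0.0268 for *Cntnap5b* and 0.0302 for *Dock10*.

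On the lower side stood *Cacng5*, an AMPA receptor regulator (-1.13), *Pcgf2*, a polycomb subunit (-0.74), *Usp20* (-0.54), *Ppfia4*, a presynaptic liprin (-0.53), and *Kcnip1*, a subunit of A-type potassium channels (-0.54). *Kcnip1* was 377, 282, 468 and 399 CPM with vehicle and 285, 238, 246 and 244 CPM with DMXAA, and the groups overlapped. Among peptide genes, *Oprm1*, the mu opioid receptor through which opioids silence interneurons, was 63.3 to 84.3 CPM with vehicle and 92.1 to 99.8 CPM with DMXAA (0.50 ± 0.17, edgeR adjusted p = 1). *Egr1*, an immediate early gene, had a log2 fold change of -1.17 ± 0.46 and *Grm5* of 0.28 ± 0.13, and neither passed.

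Interferon-stimulated genes were mostly too rare in *Sst* nuclei to be tested gene by gene. Of 86 such genes in the files, 9 passed the filter on low counts, and 0 of the 9 were called in WT, with a median log2 fold change of 0.09 against 0.02 over all genes tested. Without WT DMXAA replicate 3 this median was 0.11, over 11 genes, and leaving out 1 library at a time gave 0.0915 to 0.307, the highest without WT DMXAA replicate 4. With no filter on low counts the median was 0.629 over 76 list genes, 0 of them called, beside 0.011 over all genes. *Irf9*, a subunit of the interferon-activated factor ISGF3, was 6.14, 11.2, 13.1 and 9.30 CPM with vehicle and 17.5, 10.2, 10.0 and 20.6 CPM with DMXAA in WT. *Parp12* was 6.14, 5.62, 5.82 and 3.72 CPM with vehicle and 10.5, 8.31, 8.77 and 7.79 CPM with DMXAA, without overlap. Neither gene passed. By pooled CPM in WT, 4 of the 9 tested genes were higher with DMXAA and 5 lower. Among the lower were *Adar*, at 125 CPM with vehicle and 111 CPM with DMXAA, and *Ifit2*, at 11.4 and 8.51 CPM.

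The 77 list genes below the filter were summed per library, a split made after the values had been seen and therefore not tested. Their sum was 80.7, 84.3, 89.4 and 95.5 CPM in WT vehicle replicates 1 to 4, and 168, 128, 79.0 and 120 CPM in WT DMXAA. It was 61.1, 48.3, 65.8 and 67.8 CPM in *Ifnar1*-/- vehicle, and 60, 62.5, 62.6 and 57.3 CPM in *Ifnar1*-/- DMXAA libraries. WT DMXAA replicates 1, 2 and 4 lay above every other library, replicate 3 lay just below the WT vehicle libraries, and the *Ifnar1*-/- libraries of both treatments lay below all WT ones. The 9 genes that passed the filter summed to 218 to 276 CPM in WT vehicle and 219 to 262 CPM in WT DMXAA libraries.

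By gene, 54 of the 77 had a higher pooled CPM with DMXAA in WT *Sst* nuclei, 8 a lower one and 15 no UMI in either group. In *Ifnar1*-/- *Sst* nuclei 28 were higher, 24 lower and 25 without a UMI. *Ifi27*, a mitochondrial interferon-induced protein named here after its values were seen, was 5.27, 6.74, 5.09 and 4.34 CPM in WT vehicle and 15.8, 11.1, 5.01 and 15 CPM in WT DMXAA libraries, on 26 and 61 UMIs in all. Its level in *Ifnar1*-/- libraries was 1.30 to 5.06 CPM with vehicle and 1.74 to 3.91 CPM with DMXAA. The antiviral kinase *Eif2ak2* had 18 UMIs in WT vehicle and 36 in WT DMXAA *Sst* nuclei. *Bst2*, the antiviral tetherin, had 0 and 7 UMIs, and *Oasl2* 6 and 14. Among the 8 lower genes, *Herc6* had 31 and 20 UMIs and *Ddx58* 22 and 14. These genes, too, were named after their values were seen.

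The same sum in *Lhx6* nuclei without *Sst* was 76.9 to 97.7 CPM in WT vehicle and 159, 118, 57.2 and 101 CPM in WT DMXAA replicates 1 to 4. In *Adarb2* nuclei it was 77.3 to 89.5 CPM and 227, 206, 92.4 and 143 CPM. The order of the 4 WT DMXAA libraries was the same in the 3 populations. Markers of microglia, cells known for a strong interferon response, summed to 79.0, 88.8, 64.7 and 90.5 CPM in *Sst* nuclei of WT vehicle and 101, 102, 62.7 and 80.2 CPM of WT DMXAA libraries, with *Csf1r* at 0 by the rule. They were 25.3 to 44.5 CPM in *Ifnar1*-/- libraries. The part of such RNA in the interferon sums was not tested.

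**Figure D4:**
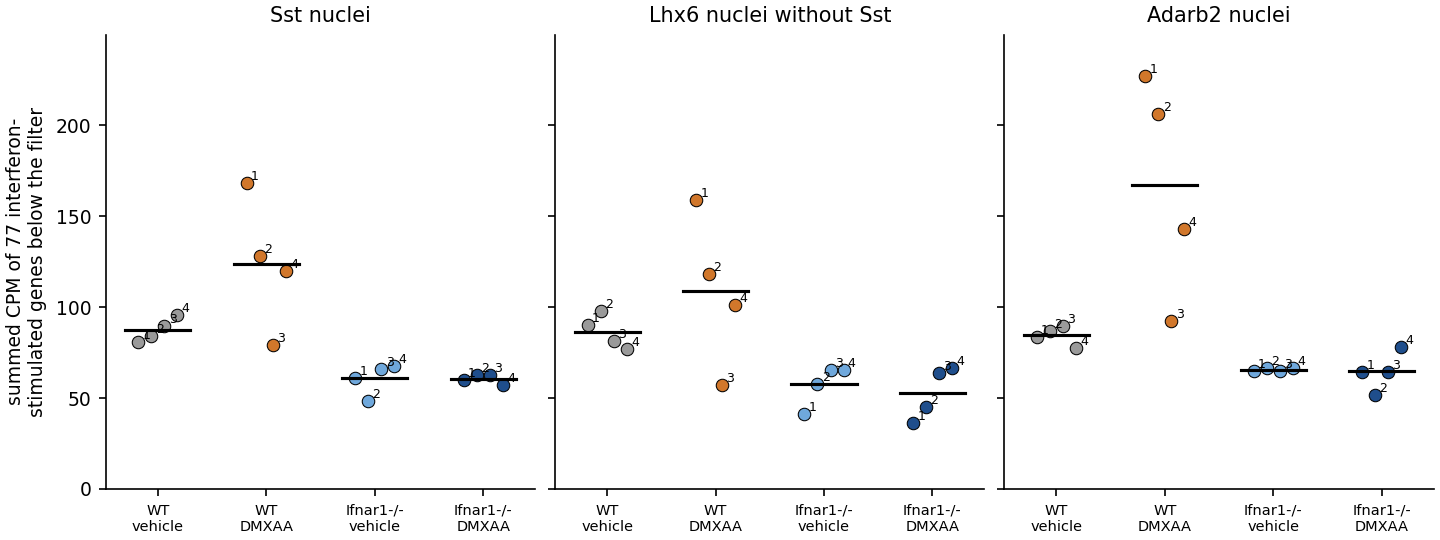
Summed CPM of the 77 interferon-stimulated genes below the filter in Sst nuclei, Lhx6 nuclei without Sst and Adarb2 nuclei. Points are libraries, numbered by replicate, and bars are group means. In each population WT DMXAA replicates 1, 2 and 4 lie above the other libraries, and replicate 3 does not in Sst nuclei and the Lhx6 nuclei.

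*Ifnar1* (chromosome 16, 91485238 to 91507441), the deleted gene, overlapped between the genotypes in *Sst* nuclei. It was 23.7, 15.7, 18.9 and 14.3 CPM in WT vehicle and 23.7, 16.6, 11.3 and 17.3 CPM in WT DMXAA libraries. In *Ifnar1*-/- libraries it was 7.23, 12.1, 13.2 and 15.6 CPM with vehicle and 15.7, 8.56, 15.3 and 8.69 CPM with DMXAA. Over both treatments the log2 difference was -0.42 ± 0.21 (SE, n = 8 each, edgeR adjusted p = 0.110). It was called lower with library size alone (-0.59, edgeR adjusted p = 0.0337) and with up to 1 UMI of each excluded gene (-0.48, edgeR adjusted p = 0.0345). The counts are tags from the end of transcripts and introns and need not lie in the deleted part, so this level does not check the labels.

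In *Ifnar1*-/- *Sst* nuclei, edgeR called 0 of 10189 genes (0%) between DMXAA and vehicle, and 810 passed 0.05 before adjustment. DESeq2 gave 0 calls and 628 such genes, and limma-trend 0 and 902. The smallest p-values on the higher side belonged to *Trmt61b*, a tRNA methyltransferase, *Ilf2*, *Srp14*, *Wdr48* and *Gm38948*. *Trmt61b* was 15.3, 10.9, 13.2 and 13 CPM with vehicle and 30, 27.4, 34.0 and 28.7 CPM with DMXAA, without overlap (log2 1.09 ± 0.24, edgeR adjusted p = 0.547). *Prdm16*, a transcriptional regulator, was 19.3, 13.3, 12.2 and 39.1 CPM with vehicle and 1.30, 5.99, 4.0 and 1.74 CPM with DMXAA (-2.62 ± 0.63, edgeR adjusted p = 0.547). *Csgalnact1*, *Bmper*, *Glis3* and *Gm45847* followed on the lower side. With no filter on low counts edgeR called 89 genes, *Trmt61b* (adjusted p = 0.0187), *Prdm16* (9.28e-07), *Csgalnact1* (2.95e-07), *Bmper* (0.000916) and *Glis3* (1.1e-05) among them.

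The difference of the DMXAA effect between genotypes was also called for 0 of 10189 genes (0%) by each of edgeR, DESeq2 and limma-trend, and 651, 528 and 721 genes passed 0.05 before adjustment. With any 1 library left out, WT DMXAA replicate 3 included, edgeR again called 0 genes. *Hs6st2*, a heparan sulfate sulfotransferase, had the smallest p. It was 95.7, 115, 113 and 94.2 CPM in WT vehicle and 132, 128, 133 and 130 CPM in WT DMXAA libraries. In *Ifnar1*-/- libraries it was 166, 170, 149 and 164 CPM with vehicle and 133, 124, 128 and 126 CPM with DMXAA, so the treatments did not overlap within either genotype and lay in opposite order. The interaction was 0.81 ± 0.16 on the log2 scale (edgeR unadjusted p = 4.29e-05, adjusted p = 0.437). *Myo5b* (1.32), *Prkd1* (1.1) and *Prdm16* (4.01) came next, and *Meis2* (4.74) followed, one of the leading genes of group 14, whose nuclei came only from WT DMXAA and *Ifnar1*-/- vehicle libraries. With no filter on low counts edgeR called 68 genes for this difference. Among them were *Myo5b* (adjusted p = 9.51e-05), *Prkd1* (0.0133), *Prdm16* (7.45e-08) and *Meis2* (3.58e-33), and, named after its value was seen, *Npy* (-1.11, adjusted p = 0.00247). With the filter the unadjusted edgeR p of these 5 genes was 0.000186, 0.000374, 0.000223, 0.000508 and 0.0145.

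Many genes were called between the genotypes in *Sst* nuclei. Between the vehicle groups edgeR called 2828 of 10189 genes (27.8%), 1355 higher and 1473 lower in *Ifnar1*-/- mice. Over both treatments, which share these vehicle libraries, it called 3736 (36.7%), 1700 higher (16.7%) and 2036 lower (20%), and the 8 and 8 libraries did not overlap for 168 of them. DESeq2 called 3391 and limma-trend 3197 over both treatments. Scaling by library size alone, without the TMM normalisation used here, shifted the differences of all genes by a median of -0.171 over both treatments and -0.236 between the vehicle groups, and edgeR then called 771 genes higher and 3081 lower over both treatments. Without WT DMXAA replicate 3, edgeR called 3463 genes between the vehicle groups and 4835 over both treatments. *Sst* nuclei that also held *Lhx6* gave 1152 and 1724 calls, and nuclei with 200 to 4000 genes gave 1697 and 2381.

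The direction of the genotype difference followed the span of the gene, from start to end with its introns. With genes in 5 classes of equal size by span, the shortest class (median 7.18 kb) had a median log2 difference of -0.62 over both treatments, and 53.4% of its genes were called lower. The next classes, at 18.3, 34.2 and 66.2 kb, had medians of -0.22, -0.01 and 0.15. In the longest class (median 179 kb) the median was 0.34, and 54.7% were called higher. For the larger lists below, the median distance of the members from the span class of each gene is the median, over members, of the gene's log2 difference minus the median of its own class. With library size alone, where 771 of 10189 genes were called higher and 3081 lower, the calls were 17 higher and 2 lower of 29 glutamate receptor genes, 3 and 2 of 14 GABA receptor genes, and 13 and 7 of 41 channel genes. They were 8 higher and 5 lower of 22 identity genes, 42 and 9 of 121 MEF2C targets, and 0 and 9 of 20 peptide genes. Within *Ifnar1*-/- *Sst* nuclei, DMXAA against vehicle had the opposite slope, from 0.23 in the shortest to -0.16 in the longest class.

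*Malat1*, an abundant nuclear RNA, was 1.21 lower on the log2 scale over both treatments (edgeR adjusted p = 4.67e-05), and 6 of 11 genes tested of a list of nuclear noncoding RNAs, heat-shock and mitochondrial transcripts were called lower and 0 higher, beside 20% lower and 16.7% higher of all genes. These are short genes (median span 5.5 kb), 53.4% of all genes in the shortest span class were called lower, and the median distance of the members from their span classes was -0.22. Their part in the differences below was not tested, and genotype, age and cohort cannot be told apart.

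In the peptide system of *Sst* nuclei more genes were called lower than higher in *Ifnar1*-/- mice. Of 20 tested genes of neuropeptides, their processing and their receptors, 9 were called lower and 2 higher over both treatments, beside 20% lower and 16.7% higher of all genes. The 9 include *Sst*, which the rule used. The list's median was -0.12, the median distance of its members from their span classes was -0.05, and their median span was 13.7 kb. In the shortest span class 53.4% of all genes were called lower, and in the next, from 12.7 to 25.5 kb, 23.1%. *Sst* within *Sst* nuclei, which the rule used and which is given as a description, was 699, 929, 720 and 1167 CPM in WT vehicle, 684, 765, 321 and 630 in WT DMXAA, 216, 354, 412 and 369 in *Ifnar1*-/- vehicle and 442, 515, 418 and 435 CPM in *Ifnar1*-/- DMXAA libraries. Only WT DMXAA replicate 3 overlapped with the *Ifnar1*-/- libraries.

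*Npy*, the neuropeptide Y precursor that many *Sst* cells also make, was 110, 124, 120 and 272 CPM in WT vehicle and 122, 128, 50.1 and 99.1 CPM in WT DMXAA libraries. It was 33.7, 38.7, 77.0 and 50.9 CPM in *Ifnar1*-/- vehicle and 74.4, 92.5, 79.9 and 51.3 CPM in *Ifnar1*-/- DMXAA libraries. It fell by 0.89 ± 0.21 on the log2 scale over both treatments (SE, n = 8 each, edgeR adjusted p = 0.00258), and by 1.44 between the vehicle groups, which did not overlap. *Chgb*, the dense-core vesicle protein chromogranin B, was 68.5 to 85.4 CPM in WT vehicle, 105, 72.1, 30.1 and 69.6 CPM in WT DMXAA, 24.9 to 46.6 CPM in *Ifnar1*-/- vehicle and 41.1 to 52.2 CPM in *Ifnar1*-/- DMXAA libraries. It was 0.77 ± 0.16 lower (edgeR adjusted p = 0.00138), and WT DMXAA replicate 3 was the only overlap.

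*Scg2*, the precursor of secretoneurin, was 85.1, 147, 90.2 and 126 CPM in WT vehicle and 44.2, 55.6, 36.5 and 84.8 CPM in *Ifnar1*-/- vehicle libraries. Over both treatments it differed by -0.69 ± 0.21 (edgeR adjusted p = 0.0137). *Chga* (-0.60), the related peptide *Cort* (-0.74), *Cck* (-1.1), *Tac1* (-1.26) and *Crhbp*, which binds the stress hormone CRH (-0.44), were lower as well. Under other settings the call was lost for *Cort* in 13 of 28, for *Crhbp* in 11 and for *Tac1* in 8. *Tac1* led group 7, which held 7.51% of the *Sst* nuclei of WT vehicle, 8.35% of WT DMXAA, 3.93% of *Ifnar1*-/- vehicle and 4.25% of *Ifnar1*-/- DMXAA libraries, and the part of this in the difference was not tested. The carboxypeptidase *Cpe*, which trims peptide precursors (0.29), and *Oprm1* (0.31, a call lost in 16 of 28 settings) were called higher. Without WT DMXAA replicate 3 the log2 differences over both treatments were -0.96 for *Npy*, -0.85 for *Chgb* and -0.80 for *Scg2*. *Sstr5*, a somatostatin receptor gene, was at 0 in all 16 libraries, on summed depths of at least 766471 UMIs.

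Of 10 tested genes of GABA synthesis, transport and breakdown, 2 were called higher and 1 lower, beside 16.7% higher and 20% lower of all genes, and with library size alone 1 and 2. *Slc32a1*, the vesicular GABA transporter that fills inhibitory vesicles, was 103, 111, 90.9 and 90.5 CPM in WT vehicle and 117, 108, 22.6 and 104 CPM in WT DMXAA libraries. It was 41.0, 33.8, 46.6 and 46.9 CPM in *Ifnar1*-/- vehicle and 80.9, 56.5, 74.6 and 69.5 CPM in *Ifnar1*-/- DMXAA libraries. WT DMXAA replicate 3 was the lowest of all 16, and without it the genotypes did not overlap in CPM. The log2 difference was -0.63 ± 0.18 over both treatments (edgeR adjusted p = 0.00975), and -0.75 without WT DMXAA replicate 3. Within *Ifnar1*-/- mice the DMXAA libraries all lay above the vehicle libraries, at 0.65 on the log2 scale, which did not pass. *Gad1* and *Gad2* were used by the rule and are not compared. *Abat*, which degrades GABA (0.34), and *Slc6a11*, a GABA transporter better known from astrocytes (0.90), were called higher.

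Of 14 GABA receptor genes, 6 were called higher and 1 lower, beside 16.7% higher and 20% lower of all genes. Their median span was 120 kb, and 54.7% of all genes in the longest span class were called higher. The list had a median of 0.27 and a median distance of -0.02 from the span classes of its members. *Gabrb1* was 432 to 513 CPM in WT vehicle, 506, 435, 743 and 500 CPM in WT DMXAA, 711 to 868 CPM in *Ifnar1*-/- vehicle and 463 to 717 CPM in *Ifnar1*-/- DMXAA libraries (0.60 ± 0.12, edgeR adjusted p = 0.000883). The GABA-B subunit *Gabbr2* (0.49) was higher, and *Gabrd*, the subunit of extrasynaptic receptors, was lower (-1.22, a call lost in 7 other settings).

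Most glutamate receptor genes were called higher. Of 29 tested, 20 rose and 1 fell, beside 16.7% higher and 20% lower of all genes and 54.7% higher in the longest span class, with a median span of 287 kb, a median difference of 0.44 and a median distance of 0.14 from the span classes of its members. *Elfn1* (ENSMUSG00000048988, chromosome 5, 139907943 to 139974722), which recruits mGluR7 to excitatory terminals on *Sst* cells, was 135, 130, 161 and 159 CPM in WT vehicle and 134, 158, 169 and 132 CPM in WT DMXAA libraries. It was 252, 279, 224 and 257 CPM in *Ifnar1*-/- vehicle and 269, 199, 214 and 204 CPM in *Ifnar1*-/- DMXAA libraries, above every WT library, replicate 3 of WT DMXAA included. The log2 difference was 0.84 ± 0.098 (SE, n = 8 each, edgeR adjusted p = 2.1e-05).

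*Grid1*, a delta glutamate receptor, was 342 to 377 CPM in WT vehicle, 302 to 390 CPM in WT DMXAA, 520 to 648 CPM in *Ifnar1*-/- vehicle and 451 to 545 CPM in *Ifnar1*-/- DMXAA libraries, also without overlap (0.75 ± 0.091, edgeR adjusted p = 2.58e-05). The AMPA receptor subunit *Gria1* was 3578 to 4307 CPM over the WT and 4836 to 6494 CPM over the *Ifnar1*-/- libraries (0.61 ± 0.087, edgeR adjusted p = 8.26e-05). *Gria2*, the subunit that makes AMPA receptors impermeable to calcium, was the single member called lower (-0.27, a call lost in 8 of 28 settings). The AMPA receptor auxiliary *Cacng2* (0.66), the mGluR genes *Grm7* (0.48) and *Grm8* (0.84), the kainate receptor genes *Grik1* (0.53), *Grik3* (0.67) and *Grik4* (0.72), and the NMDA receptor genes *Grin2a* (0.42), *Grin2b* (0.33) and *Grin3a* (0.33, a call lost in 15 of 28 settings) were higher.

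Of 41 channel genes, with a median span of 222 kb, 19 were called higher and 5 lower, beside 16.7% higher and 20% lower of all genes and 54.7% higher in the longest span class, with a median of 0.28 and a median distance of 0.07 from the span classes of its members. *Dpp6*, which speeds A-type potassium channels, was 1480 to 1558 CPM in WT vehicle, 1423, 1281, 2021 and 1316 CPM in WT DMXAA, 2281 to 2834 CPM in *Ifnar1*-/- vehicle and 1797 to 2138 CPM in *Ifnar1*-/- DMXAA libraries. Replicate 3 of WT DMXAA was the only WT library within the *Ifnar1*-/- range (0.71 ± 0.11, edgeR adjusted p = 0.000173, and 0.83 without that library). *Kcnd3*, the pore-forming partner (0.88), *Kcnip1* (0.67), *Kcnq3* and *Kcnq5* of the M current (0.57 and 0.55), *Kcnma1*, the BK channel (0.55), and *Cacna1c*, an L-type calcium channel (0.74), were higher too.

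The lower channel genes included *Kcna1* and *Kcna2*, axonal delayed-rectifier subunits, *Hcn2* (-0.41) and *Kcnj9* (-0.50, a call lost in 19 of 27 other settings). *Kcna1* was 67.6, 68.6, 48.7 and 53.3 CPM in WT vehicle and 54.4, 64.7, 32.6 and 54.6 CPM in WT DMXAA libraries. It was 21.7, 13.3, 30.4 and 27.4 CPM in *Ifnar1*-/- vehicle and 41.7, 30.8, 46.0 and 32.1 CPM in *Ifnar1*-/- DMXAA libraries, so that only WT DMXAA replicate 3 overlapped (-0.74 ± 0.15, edgeR adjusted p = 0.000883, and -0.79 without it). *Kcna2* differed by -0.50.

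**Figure D5:**
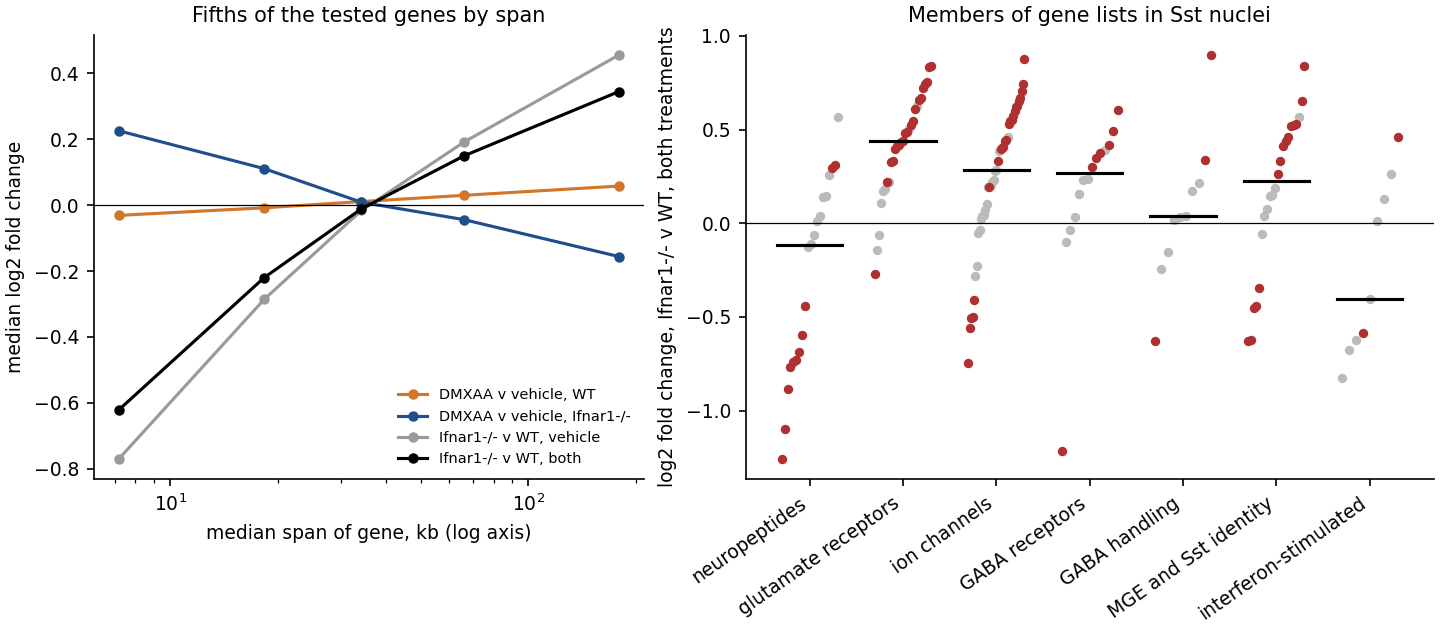
Left, median log2 fold change of the tested genes in 5 classes of gene span, for 4 comparisons. Right, log2 fold change of the tested members of 7 gene lists between Ifnar1-/- and WT Sst nuclei over both treatments, red where called, with list medians as bars. Medians rise from -0.62 in the shortest to 0.34 in the longest genes, and most called neuropeptide genes lie below 0 while most called receptor and channel genes lie above it.

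Identity genes of *Sst* cells were called in both directions. Of 22 tested, 10 were called higher and 5 lower, beside 16.7% higher and 20% lower of all genes. Their median span was 127 kb, and 54.7% of all genes in the longest span class were called higher. The list had a median of 0.23 and a median distance of 0.12 from the span classes of its members. *Synpr* (0.53), *Sox6* (0.52), *Nxph1* (0.46), *Maf* (0.41) and *Satb1* (0.26, a call lost under 12 other settings) were higher, and *Crhbp* and *Dlx1* (-0.34, a call lost under 21 other settings) were among those lower. *Lhx6* was 34.2 to 65.7 CPM in WT vehicle, 46.2 to 67.5 CPM in WT DMXAA, 55.6 to 70.7 CPM in *Ifnar1*-/- vehicle and 61.6 to 70.6 CPM in *Ifnar1*-/- DMXAA libraries (0.38 ± 0.12, edgeR adjusted p = 0.0190), and its sign turned in *Sst* nuclei chosen to hold *Lhx6* (-0.092). Of 10 tested subtype genes 1 was called higher, *Reln* (0.47), and 3 lower, *Npy*, *Tac1* and *Cort* given above, while *Nos1* was not called (0.19).

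*Mef2c*, a transcription factor of activity-dependent programs and the study's main neuronal gene, was 550, 412, 517 and 562 CPM in WT vehicle and 466, 460, 437 and 541 CPM in WT DMXAA *Sst* nuclei. It was 318, 356, 395 and 378 CPM in *Ifnar1*-/- vehicle and 480, 399, 512 and 346 CPM in *Ifnar1*-/- DMXAA libraries. *Mef2c* passed no comparison in the fit used here. Between the vehicle groups, which did not overlap in CPM, the TMM-scaled log2 difference of *Mef2c* was -0.27 (edgeR adjusted p = 0.119). Other settings called *Mef2c* lower between the vehicle groups, at -0.37 without called doublets (edgeR adjusted p = 0.0486) and at -0.51 with library size alone (edgeR adjusted p = 0.00686), and the latter also over both treatments, at -0.33 (edgeR adjusted p = 0.00812). Of 121 tested genes of the study's list of MEF2C targets, chosen on inhibitory neurons of another of its experiments, 0 were called with DMXAA in either genotype, with medians of 0.04 in WT and -0.19 in *Ifnar1*-/- nuclei. For DMXAA in *Ifnar1*-/- nuclei the median was 0.003 over all genes and -0.156 in the longest span class. The median distance of the members from their span classes was -0.011 in WT and -0.045 in *Ifnar1*-/- nuclei. The WT median was -0.06 without WT DMXAA replicate 3. Over both treatments 67 were called higher and 4 lower in *Ifnar1*-/- nuclei, beside 16.7% higher and 20% lower of all genes, with a median of 0.38. These are long genes (median span 256 kb), and 54.7% of all genes in the longest span class were called higher. For this genotype difference the median distance of the members from their span classes was 0.06.

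Genes of interferon signaling were compared between the genotypes as well, where 36.7% of all genes were called. Of the 9 interferon-stimulated genes tested, *Adar* was called higher (0.46) and *Pml* lower (-0.59, a call lost under 18 of 26 other settings) in *Ifnar1*-/- mice. With library size alone 1 of the 9 was called higher and 4 lower, and with DESeq2 1 and 0. Of 12 genes that sense or transduce interferon, *Irf3* (-1.07), *Tbk1* (-0.34) and *Tyk2* (-0.49) were lower and 0 higher, beside 20% lower of all genes, and the calls of *Tyk2* and *Tbk1* were lost in 16 and 12 of 28 settings. With library size alone 7 of these 12 were called lower, beside 3081 of all 10189 genes, and with DESeq2 1 was. The list's median was -0.37, and the median distance of its members from their span classes was -0.19. *Jund* (-0.84) and *Junb* (-1.1, a call lost in 11 other settings) of the immediate early list and *Per3* (-0.50, lost in 6) of the clock list were lower, and no other member of these lists was called.

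Markers of other cells were low in *Sst* nuclei and in part differed by genotype. All 3 tested microglial markers, *P2ry12* (-1.48) and *Cx3cr1* (-1.49) among them, were called lower in *Ifnar1*-/- nuclei, beside 20% lower and 16.7% higher of all genes. *Slc1a2* of astrocytes (0.99) was called higher, and *Tek* of endothelium (-1.18) was called lower. Of 6 tested excitatory neuron markers 3 were called higher and 0 lower, namely *Hs3st4* (1.15), *Ptpn3* (0.49) and *Camk2a* (0.30, a call lost under 9 other settings), and with library size alone 1 was called higher. Of 3 tested oligodendrocyte markers 1 was called lower, and of 2 tested markers of oligodendrocyte precursors *Lhfpl3* was called higher (0.34). The excitatory neuron markers summed to 297 to 464 CPM in WT and 364 to 509 CPM in *Ifnar1*-/- libraries. *Slc17a7*, *Mog*, *Pdgfra* and *Csf1r* were at 0 by the rule. Their part in the genotype differences was not tested.

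Among called genes whose WT and *Ifnar1*-/- libraries did not overlap, the lower side was led by short genes. *Gm15965* (chromosome 16, 90983907 to 90987237), a noncoding gene, was 17.6, 19.1, 18.9 and 22.9 CPM in WT vehicle, 30.7, 37.0, 10.0 and 23.4 CPM in WT DMXAA and 1.01 to 6.66 CPM in all *Ifnar1*-/- libraries (-2.74 ± 0.30, edgeR adjusted p = 1.75e-05). It lies within 1 Mb of *Ifnar1* on the same chromosome. *1110065P20Rik* (-2.60), *Mettl23* (-2.12), *Pet100* (-1.97) and *Snhg8* (-1.92) followed. On the higher side stood *Olfr1564* (1.08), *Gm42418* (1.03), which can take up reads of ribosomal RNA, *Gm36988* (0.92) and *Ankrd6* (0.86). Between the vehicle groups *Maml2*, a Notch coactivator, was 39.5, 12.4, 29.8 and 36.0 CPM in WT and 92.4, 112, 96.2 and 145 CPM in *Ifnar1*-/- libraries (2.09 ± 0.26, edgeR adjusted p = 0.000236). *Taco1* (2.80), *Tafa1* (2.53) and *Glis3* (2.47) were higher there, and *Nefm*, a neurofilament subunit (-3.51), and *Sft2d3* (-3.01) were lower.

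The size of the genotype difference was then compared with that in other interneurons, and few genes passed. Its difference between *Sst* nuclei and *Lhx6* nuclei without *Sst* was called for 0 of 9863 genes (0%) over both treatments, with 526 at an unadjusted p under 0.05. Against *Adarb2* nuclei it was called for 21 of 11845 genes (0.177%), 6 with a more positive and 15 with a more negative difference in *Sst* nuclei. *Oprm1* differed by 0.31 in *Sst* nuclei, a call that some settings lost as given above, and by -0.37 in *Adarb2* nuclei of *Ifnar1*-/- mice, a difference of 0.72 ± 0.14 (SE, edgeR adjusted p = 0.0291). *Prkg1*, a cGMP-dependent kinase, rose by 0.58 in *Sst* and by 1.47 in *Adarb2* nuclei (-0.95 ± 0.19, edgeR adjusted p = 0.0291). *Npnt*, an integrin ligand, had the smallest p (-3.31 ± 0.51, edgeR adjusted p = 0.0113). The DMXAA effect in WT differed between *Sst* and either population for 0 genes, with 465 and 508 at an unadjusted p under 0.05.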

How the data were processed

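Nuclei of 16 mouse hippocampi, 4 per group, were sequenced with a 10x 3′ kit. The deposited files hold raw UMI counts per gene and barcode, which the authors made with Cell Ranger on mm10, with introns counted. The file headers give version 6.1.2 and the submitters' processing notes 3.1.0. Nuclei were selected by the stated limits, and their counts were summed per library. Members and gene lists were chosen with earlier results of these data known.

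Sums of 10189 genes that passed filterByExpr were normalised by TMM and tested with edgeR 4.0.16 (quasi-likelihood F test, R 4.3.3) in 1 fit over the 4 groups. A gene was called at a Benjamini-Hochberg adjusted p under 0.05 and a log2 fold change above 0.1 in size. DESeq2 1.42.0 and limma 3.58.1 were alternatives. Log2 fold changes are given with standard errors. CPM is UMIs per 1000000 UMIs of the same summed nuclei, for comparison between libraries and not between genes. It does not carry the TMM factors of the fits. These were 1.062 to 1.107 in WT vehicle and 0.8879 to 0.9313 in *Ifnar1*-/- vehicle libraries. CPM ranges that do not overlap may therefore overlap on the scale of the fold changes.

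Shares and the level of *Sst* were tested over libraries by exact permutation (two-sided), adjusted over 4 comparisons. Each library is 1 mouse. Doublets were scored against simulated doublets, and nuclei were clustered with Scanpy 1.11.5. Named genes were the 5 smallest p-values per direction for treatment, the 5 largest called differences without overlap per direction for genotype, called list members with up to 4 more per list by p in WT, and the 15 highest and 5 lowest ratios of *Sst* to *Lhx6* nuclei. The fits were tested on simulated data. Alternatives covered the normalisation, the filter, the tool, the nucleus limits and each library left out. Counts limit precision, and intervals cover counting error only. Some named or listed genes are not reported here.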

Additional observations from a re-analysis of the deposited data

Results flagged for a closer look

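Of 160 groups of 4 libraries examined for a library far from the others, 8 had one, and chance gives about 1 in 20. *Sst* in nuclei with *Gad1* or *Gad2* and *Lhx6* was 529 CPM in WT vehicle replicate 4, far above the other WT vehicle libraries, and *Npy* in *Sst* nuclei of the same library was 272 CPM. WT DMXAA replicate 3 stood apart in the percent of *Sst* nuclei with 2 or more *Adarb2* UMIs (21.1%) and in *Slc32a1* (22.6 CPM). *Kcnip1* stood out at 285 CPM in WT DMXAA replicate 1. In *Ifnar1*-/- vehicle libraries, *Arid5b* was 91.3 CPM in replicate 4 and *Malat1* 11502 CPM in replicate 2, both far below their group. *Chgb* was 52.2 CPM in *Ifnar1*-/- DMXAA replicate 1, above the rest of its group.

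The genotype difference over both treatments was tested between *Sst* and *Adarb2* nuclei, and 21 genes passed by edgeR's quasi-likelihood test. Among them were *Npnt*, *Prkag2*, *Tmem108*, *Epha4*, *Zfpm2*, *Cdh18* and *Prkg1*, more negative in *Sst* nuclei, and *Cpne2*, *Ldb2*, *Necab1* and *Oprm1*, more positive.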

How the results depend on the processing

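No paired analysis was possible because the numbers in the sample titles are shared by no 2 groups. With no filter on low counts, edgeR called 42 genes for DMXAA in WT, 89 in *Ifnar1*-/- mice, 68 for the interaction and 24 for the DMXAA effect in WT between *Sst* nuclei and *Lhx6* nuclei without *Sst*, and the median of the interferon list became 0.629, over more genes. With 200 to 4000 genes per nucleus the interaction gave 1 call, and genotype 1697 in vehicle and 2381 over both treatments. *Sst* nuclei also holding *Lhx6* gave 1152 and 1724, and *Lhx6* itself then differed by -0.092 (edgeR unadjusted p = 0.548). With 4 or more *Sst* UMIs the interferon median was -0.125 and the population difference 1 gene. The genotype difference in share over both treatments was -0.334 points of all nuclei (exact permutation adjusted p = 0.0572), and that in *Sst* was -136 CPM with 2 *Lhx6* UMIs (exact permutation adjusted p = 0.0964). The causes were not tested.

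Leaving out 1 library gave 0 to 1 calls in WT, 1866 to 3463 between vehicle groups, with the lowest without *Ifnar1*-/- vehicle replicate 2, and 3026 to 4835 over both treatments. The interferon median ranged from 0.0915 to 0.307 and the MEF2C median from -0.0606 to 0.119. The share differed by -5.91 to -0.447 points in WT, 1.60 to 3.45 in *Ifnar1*-/- mice, -10.9 to -8.82 between vehicle groups and -8.35 to -6.01 over both treatments. *Sst* differed by -94.5 to 28.4 CPM in WT, the sign turning without WT vehicle replicate 4, by 38.2 to 57 in *Ifnar1*-/- mice, by -214 to -96.3 between vehicle groups and by -157 to -89.9 over both treatments. Of 153 gene results, 96 were called in the fit used here. Under all settings run, 90 of the 153 stayed as they were, called or not called. A change of direction was counted only where the gene was called.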

Other observations

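*Gh*, the pituitary growth hormone gene, had 4905 UMIs in *Sst* nuclei of WT DMXAA replicate 4 and 0 to 31 in the other libraries, and *Prl*, prolactin, had 70 UMIs there and 0 to 2 in the others. In *Adarb2* nuclei *Oasl2* had 4 UMIs in WT vehicle, 37 in WT DMXAA, 2 in *Ifnar1*-/- vehicle and 4 in *Ifnar1*-/- DMXAA libraries. *Ddx60* had 3, 32, 2 and 0 UMIs in the same order. These genes were named after their values were seen.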
